A study of Mus musculus with 48 samples.

Results

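The 10 genes described here are transcripts typical of neutrophils, read in 4 populations of immune cells that were sorted from the tumours of mice. They were taken by name as 10 of the 24538 gene rows of a count table: S100a8, S100a9, Cxcr2, Csf3r, Retnlg, G0s2, Camp, Ngp, Wfdc21 and Stfa2l1. The populations carry the names Ly6Clo MHCIIlo, Ly6Clo MHCIIhi, Ly6Chi MHCIIhi and Ly6Chi MHCIIlo, after the surface levels of Ly6C and of MHC class II by which they were gated, and each was taken from Ccl17 ko and from ctrl mice. CCL17 is a chemokine that draws cells bearing the receptor CCR4. All mice, of both genotypes, had received AOM DSS (the carcinogen azoxymethane and dextran sulfate sodium, a damaging agent of the colon lining), and all cells were labelled d85. The series text names ko mice cohoused with control mice and ko mice housed separately, but the sample labels do not say which were which. Nor do they give the Ccl17 allele, the age of the mice or whether a sample came from 1 animal or from several. After library filtering, there were 4 ko and 4 ctrl replicates of Ly6Clo MHCIIlo, 8 and 8 of Ly6Clo MHCIIhi, 4 and 3 of Ly6Chi MHCIIhi, and 4 and 4 of Ly6Chi MHCIIlo.

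Neutrophils are short-lived granulocytes that leave the bone marrow and enter inflamed or tumour tissue. Their genes come on in order: precursors make granule proteins such as those of Camp and Ngp, and mature cells carry the receptors of Cxcr2 and Csf3r. S100a8 and S100a9 encode the 2 chains of calprotectin, an abundant cytosolic protein of neutrophils that monocytes also make. None of the 4 gates was named after neutrophils, and the gate genes had levels that mostly fitted their names. The monocyte gene Ly6c2 ran from 19.1 to 62.7 CPM in Ly6Clo MHCIIlo, 5.88 to 84.1 CPM in Ly6Clo MHCIIhi, 327 to 792 CPM in Ly6Chi MHCIIhi and 932 to 1694 CPM in Ly6Chi MHCIIlo. CPM are counts per 1000000 counts of a replicate, scaled by the trimmed mean of M values (TMM). Cd74, which encodes the invariant chain of MHC class II, ran from 1949 to 3335 CPM in Ly6Clo MHCIIlo and 11498 to 15135 CPM in Ly6Clo MHCIIhi. It ran from 3597 to 14524 CPM in Ly6Chi MHCIIhi and 1169.5 to 2434 CPM in Ly6Chi MHCIIlo. The value of 3597 CPM, in ctrl replicate 1, lay close to the MHCIIlo values.

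S100a8 and S100a9 lie close together on mouse chromosome 3, and Camp and Ngp both lie on chromosome 9. In GRCm38 with the GENCODE M21 annotation, the 2 granule genes were Camp (chromosome 9, 109847379 to 109849617, minus strand) and Ngp (chromosome 9, 110419747 to 110423012, plus strand). The 2 mature genes that moved the other way between the MHCIIlo gates were Cxcr2 (chromosome 1, 74153989 to 74161246, plus strand) and Retnlg (chromosome 16, 48872621 to 48874496, plus strand). All 10 members are annotated as protein coding. RefSeq start-site windows on GRCm38.p6, of 250 bases before to 50 bases after the start, were found for 9 of the 10 members, and Wfdc21 had none. The 4 windows printed here, 5′ to 3′ on the strand of the gene, belong to the genes that differed in opposite directions between Ly6Clo MHCIIlo and Ly6Chi MHCIIlo. Members were called there about as often as all genes, of which 19.3% were called higher and 18.2% lower. Capitals mark matches to TTGCNNAA on either strand, a form of the site bound by C/EBP factors, which drive granulocyte genes.
Cxcr2 chr1:74153744-74154043 (+ strand): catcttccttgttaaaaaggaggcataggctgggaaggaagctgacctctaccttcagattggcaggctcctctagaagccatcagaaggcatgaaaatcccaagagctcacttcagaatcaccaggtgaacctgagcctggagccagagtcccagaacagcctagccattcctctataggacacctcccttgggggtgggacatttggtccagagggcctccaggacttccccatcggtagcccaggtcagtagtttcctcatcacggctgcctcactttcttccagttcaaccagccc
Retnlg chr16:48872358-48872657 (+ strand): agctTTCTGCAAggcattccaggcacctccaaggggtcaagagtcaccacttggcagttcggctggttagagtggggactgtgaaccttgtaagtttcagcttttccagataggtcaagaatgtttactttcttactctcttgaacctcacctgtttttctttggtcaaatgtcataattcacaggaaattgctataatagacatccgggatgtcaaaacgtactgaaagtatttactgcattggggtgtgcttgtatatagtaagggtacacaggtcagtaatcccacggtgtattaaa
Camp chr9:109849407-109849706 (- strand): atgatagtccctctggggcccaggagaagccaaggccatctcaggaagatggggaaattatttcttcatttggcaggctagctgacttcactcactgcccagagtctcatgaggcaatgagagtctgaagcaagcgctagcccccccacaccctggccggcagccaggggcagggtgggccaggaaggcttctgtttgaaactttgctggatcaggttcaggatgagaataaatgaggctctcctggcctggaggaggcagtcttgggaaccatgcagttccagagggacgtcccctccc
Ngp chr9:110419558-110419857 (+ strand): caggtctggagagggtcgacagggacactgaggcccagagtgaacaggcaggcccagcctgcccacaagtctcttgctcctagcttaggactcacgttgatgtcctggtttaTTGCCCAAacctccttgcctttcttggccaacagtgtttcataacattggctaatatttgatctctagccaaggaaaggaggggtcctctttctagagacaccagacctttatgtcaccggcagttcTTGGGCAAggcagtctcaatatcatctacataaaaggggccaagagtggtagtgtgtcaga
The form matched at base -246 from the start in Retnlg and at bases -138 and -11 in Ngp, and was not in the windows of Cxcr2 and Camp. Over the members it was in 3 of 9 windows (Retnlg, Ngp and S100a9), against 10.8% of all 32851 windows of the same length. GAGGAAGT, a form of the site of the myeloid factor PU.1 that does not overlap TTGCNNAA, was in 1 of 9 windows (S100a8), against 3.20% of all windows. These matches describe letters and show no binding.

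The table held 48 libraries with 8409 to 500687 counts each (median 280062.5). One library, of Ly6Chi MHCIIhi ctrl replicate 2, had 8409 counts and was left out, and the 47 others had at least 34362. Of the 39 replicates kept, 8 in Ly6Clo MHCIIhi had 2 libraries, whose counts were summed. The labels do not say that replicates came from separate animals, so p-values measure only the spread between these samples. Ccl17, the targeted gene, ran from 0 to 6.79 CPM (median 3.38) in ko and from 0 to 782 CPM (median 56.3) in ctrl replicates of Ly6Clo MHCIIhi. In the 3 other populations it was low in both genotypes, at 0 to 14.5 CPM in ko and 0 to 33.0 CPM in ctrl replicates, so it hardly checks the labels there. Every ko library of these 3 populations had 1 or 3 A or T bases in its sample barcode of 6 bases, and every ctrl library had 5. So genotype cannot be told apart there from the class of barcode, called rich in G and C or rich in A and T here.

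One library stood apart in the neutrophil genes before any comparison: replicate 1 of Ly6Chi MHCIIhi ctrl, with 78265 counts. S100a8 was at 27507 CPM in it, against 86.0 to 584 CPM in the 6 other Ly6Chi MHCIIhi replicates of both genotypes. Camp was at 9686 CPM, against 3.64 to 264 CPM, and Ngp was at 7442 CPM, against 4.30 to 123 CPM. Not every member was high there, since Csf3r was at 33.0 CPM, inside the 24.1 to 48.3 CPM of the others, and Cxcr2 and Stfa2l1 had no count. Other lists moved with it. The 5 globin and haem genes of the red cell list summed to 297495 CPM, against 88.5 to 1649 CPM in the 6 others. The 5 primary granule genes (Mpo, Elane, Prtn3, Ctsg and Ms4a3), which mark the earliest granulocyte precursors, summed to 1650.1 CPM, against 0 to 47.0 CPM. The 5 proliferation genes summed to 1353 CPM, against 36.4 to 129 CPM, and the 7 monocyte genes to 1667 CPM, against 3568 to 7599.7 CPM. The 10 later granule genes summed to 6287 CPM, against 1037 to 2637 CPM. Other neutrophil lists were below all 6 others. The 11 receptor and surface genes summed to 1320 CPM, against 2644 to 3571 CPM. The 11 genes reported for tumour neutrophils summed to 2888 CPM, against 10175 to 14910 CPM. The 6 granulocyte transcription factors summed to 776 CPM, against 1664 to 2937 CPM. The 2 gate genes, Ly6c2 and Cd74, summed to 4389 CPM, against 6919.9 to 15312 CPM, and its Cd74 was the lowest of the gate. This library thus had high early granulocyte, dividing-cell and red cell transcripts. Its monocyte transcripts and several other neutrophil lists were low. The comparisons of gates and genotypes that use it are given with and without it.

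The neutrophil genes were abundant in both MHCIIlo gates and scarce in Ly6Clo MHCIIhi. Together the 10 members made up 1.36 ± 0.8288% of counts in Ly6Clo MHCIIlo (SD, n = 8), 0.0387 ± 0.0274% in Ly6Clo MHCIIhi (n = 16) and 1.23 ± 0.524% in Ly6Chi MHCIIlo (n = 8). In Ly6Chi MHCIIhi the share was 0.920 ± 2.20% with ctrl replicate 1 (n = 7) and 0.0878 ± 0.0548% without it (n = 6). S100a8 and S100a9, which monocytes also make, hold most of these sums. On average they had 9717 of 13055 CPM in Ly6Clo MHCIIlo and 9336 of 12919 CPM in Ly6Chi MHCIIlo. The 4 mature genes (Cxcr2, Csf3r, Retnlg and G0s2) had 2618 CPM and 1513 CPM there. These are bulk samples, in which fewer cells of a type and less RNA per cell cannot be told apart.

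S100a8 and S100a9, the calprotectin chains, had similar patterns over the gates. In ko replicates 1 to 4 of Ly6Clo MHCIIlo, S100a8 was at 4901, 2862, 9500.1 and 5119.7 CPM, against 4025, 4509.6, 1945 and 2732 CPM in ctrl replicates 1 to 4. Ly6Clo MHCIIhi had 59.5 to 565 CPM (median 152) in ko and 47.8 to 273 CPM (median 93.9) in ctrl. Both MHCIIlo gates were high: Ly6Chi MHCIIlo had S100a8 at 3145, 6388, 2569.9 and 7230.3 CPM in ko, against 7604, 5215, 2759 and 3015 CPM in ctrl. The genotypes overlapped in these gates, and the highest MHCIIlo value was in ko replicate 3 of Ly6Clo MHCIIlo. S100a8 in Ly6Chi MHCIIhi was at 186, 549, 265 and 584 CPM in ko replicates, against 27507, 217 and 86.0 CPM in ctrl replicates 1, 3 and 4. Apart from that ctrl replicate 1, no MHCIIhi replicate reached the lowest MHCIIlo value.

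S100a9 in Ly6Clo MHCIIlo was at 5323, 3190.0, 13909 and 4779 CPM in ko and 4138, 5869, 1739 and 3195 CPM in ctrl. It ran from 44.9 to 414 CPM (median 89.1) in ko and 38.6 to 218 CPM (median 79.7) in ctrl of Ly6Clo MHCIIhi. In Ly6Chi MHCIIhi it was at 80.1, 466, 201 and 499 CPM in ko and 26236, 313 and 38.7 CPM in ctrl replicates 1, 3 and 4. The one value that reached the MHCIIlo range, and passed it, was again that of ctrl replicate 1. Ly6Chi MHCIIlo had S100a9 at 2877, 7262, 2395 and 5598 CPM in ko and 6559.7, 5085, 3888 and 3097 CPM in ctrl. Its ko and ctrl values overlapped in both MHCIIlo gates.

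The genes of mature neutrophils were highest on average in Ly6Clo MHCIIlo. Cxcr2, the receptor for Cxcl1 and Cxcl2 that brings neutrophils into tissue, was at 66.6, 57.9, 207 and 45.7 CPM in ko and 28.4, 108, 15.3 and 76.4 CPM in ctrl replicates of that gate. In Ly6Clo MHCIIhi it did not pass 4.56 CPM in ko or 3.68 CPM in ctrl. Cxcr2 was at 0, 3.61, 8.04 and 11.7 CPM in Ly6Chi MHCIIhi ko and 0, 0 and 8.60 CPM in Ly6Chi MHCIIhi ctrl. A count of 0, with 3 counts as its limit, allows up to 10.9 CPM in ko replicate 1, 49.5 CPM in ctrl replicate 1 and 72.3 CPM in ctrl replicate 3 there. Ly6Chi MHCIIlo had Cxcr2 at 12.3, 22.2, 27.9 and 45.5 CPM in ko and 43.1, 37.1, 20.3 and 19.4 CPM in ctrl. Every measured MHCIIlo value lay above every MHCIIhi value, and ctrl replicates 1 and 3 of Ly6Clo MHCIIlo lay within the range of Ly6Chi MHCIIlo.

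Retnlg, which encodes a resistin-like protein secreted by mouse neutrophils, was at 1327, 864, 4392 and 1858 CPM in ko and 1379, 1589, 694 and 1065 CPM in ctrl replicates of Ly6Clo MHCIIlo. Ly6Clo MHCIIhi had 7.10 to 147 CPM (median 27.1) in ko and 7.005 to 29.4 CPM (median 14.5) in ctrl. No replicate of the second gate reached the lowest of the first. Retnlg was at 14.6, 43.4, 88.5 and 206 CPM in Ly6Chi MHCIIhi ko and 2409, 24.1 and 8.60 CPM in ctrl replicates 1, 3 and 4. In Ly6Chi MHCIIlo it was at 455, 328, 566 and 2169 CPM in ko and 1061, 811, 631 and 525 CPM in ctrl. The value of ko replicate 4 there stood apart from its 3 group mates and lay within the range of Ly6Clo MHCIIlo.

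G0s2, which encodes an inhibitor of fat breakdown, followed the same order. It ran from 369.9 to 2023 CPM in ko and 369.9 to 1075 CPM in ctrl of Ly6Clo MHCIIlo. No replicate of Ly6Clo MHCIIhi passed 35.1 CPM. The replicates of Ly6Chi MHCIIhi had 21.5 to 545 CPM, and in Ly6Chi MHCIIlo it ran from 329 to 779 CPM in ko and 373 to 807 CPM in ctrl. Csf3r, the receptor for the neutrophil growth factor G-CSF, varied least between gates. It ran from 38.1 to 224 CPM in Ly6Clo MHCIIlo, 18.2 to 46.9 CPM in Ly6Clo MHCIIhi, 24.1 to 48.3 CPM in Ly6Chi MHCIIhi and 54.0 to 146 CPM in Ly6Chi MHCIIlo. Its Ly6Clo MHCIIlo values overlapped those of both MHCIIhi gates, while all its Ly6Chi MHCIIlo values lay above both.

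The granule genes were highest on average in Ly6Chi MHCIIlo when ctrl replicate 1 of Ly6Chi MHCIIhi is left aside, and they ranged more widely than any other member within each MHCIIlo gate. Camp encodes cathelicidin, an antimicrobial peptide precursor of the secondary granules. It was at 38.9, 429.5, 5.59 and 245 CPM in ko and 427, 0, 80.1 and 0 CPM in ctrl replicates of Ly6Clo MHCIIlo, where the counts of 0 allow up to 20.3 CPM in ctrl replicate 2 and 15.3 CPM in ctrl replicate 4. Ly6Clo MHCIIhi had 0 to 14.8 CPM (median 4.87) in ko and 0 to 18.2 CPM (median 7.06) in ctrl. These gates overlapped, through the low replicates of Ly6Clo MHCIIlo. Camp was at 3.64, 264, 56.3 and 7.79 CPM in Ly6Chi MHCIIhi ko and 9686, 24.1 and 12.9 CPM in ctrl replicates 1, 3 and 4. In Ly6Chi MHCIIlo, Camp was at 671, 2755, 6.98 and 236 CPM in ko and 2055, 158, 576 and 501 CPM in ctrl. Replicate 3 was the lowest ko replicate in both MHCIIlo gates.

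Ngp, which encodes a cathelicidin-related granule protein, was at 55.5, 304, 55.9 and 183 CPM in ko and 436, 54.1, 64.8 and 15.3 CPM in ctrl replicates of Ly6Clo MHCIIlo. In Ly6Clo MHCIIhi it ran from 0 to 21.5 CPM in ko and 0 to 36.4 CPM in ctrl, with 2 ko replicates and 1 ctrl replicate at 0. Ngp was at 7.28, 123, 8.04 and 23.4 CPM in Ly6Chi MHCIIhi ko and 7442, 24.1 and 4.30 CPM in ctrl replicates 1, 3 and 4. The high ctrl value there is that of replicate 1, and ko replicate 2 was the next. In Ly6Chi MHCIIlo it was at 385, 1579, 13.97 and 296 CPM in ko and 1313, 259.6, 508 and 427 CPM in ctrl. As for Camp, ko replicate 2 and ctrl replicate 1 were the highest of their genotype in both MHCIIlo gates.

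Wfdc21, a whey acidic protein family member, and Stfa2l1, a stefin A protease inhibitor, were also MHCIIlo genes. Wfdc21 ran from 241 to 788 CPM in ko and 187 to 365 CPM in ctrl of Ly6Clo MHCIIlo, and no Ly6Clo MHCIIhi replicate passed 49.7 CPM. It was at 14.6, 47.0, 8.04 and 121 CPM in Ly6Chi MHCIIhi ko and 2492, 96.4 and 4.30 CPM in ctrl replicates 1, 3 and 4. In Ly6Chi MHCIIlo it ran from 227 to 1117 CPM in ko and 338 to 839 CPM in ctrl. Stfa2l1 ran from 15.3 to 112 CPM in Ly6Clo MHCIIlo, 0 to 4.44 CPM in Ly6Clo MHCIIhi, 0 to 7.79 CPM in Ly6Chi MHCIIhi and 20.3 to 73.9 CPM in Ly6Chi MHCIIlo. Its measured values did not overlap between the MHCIIlo and the MHCIIhi gates. It had no count in any ctrl replicate of Ly6Chi MHCIIhi. In ctrl replicates 1 and 3 there, the limits given for Cxcr2 lie above the lowest MHCIIlo value of Stfa2l1. Stefin A genes have near-identical copies that may share reads, so the level of Stfa2l1 is uncertain.

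**Figure D1:**
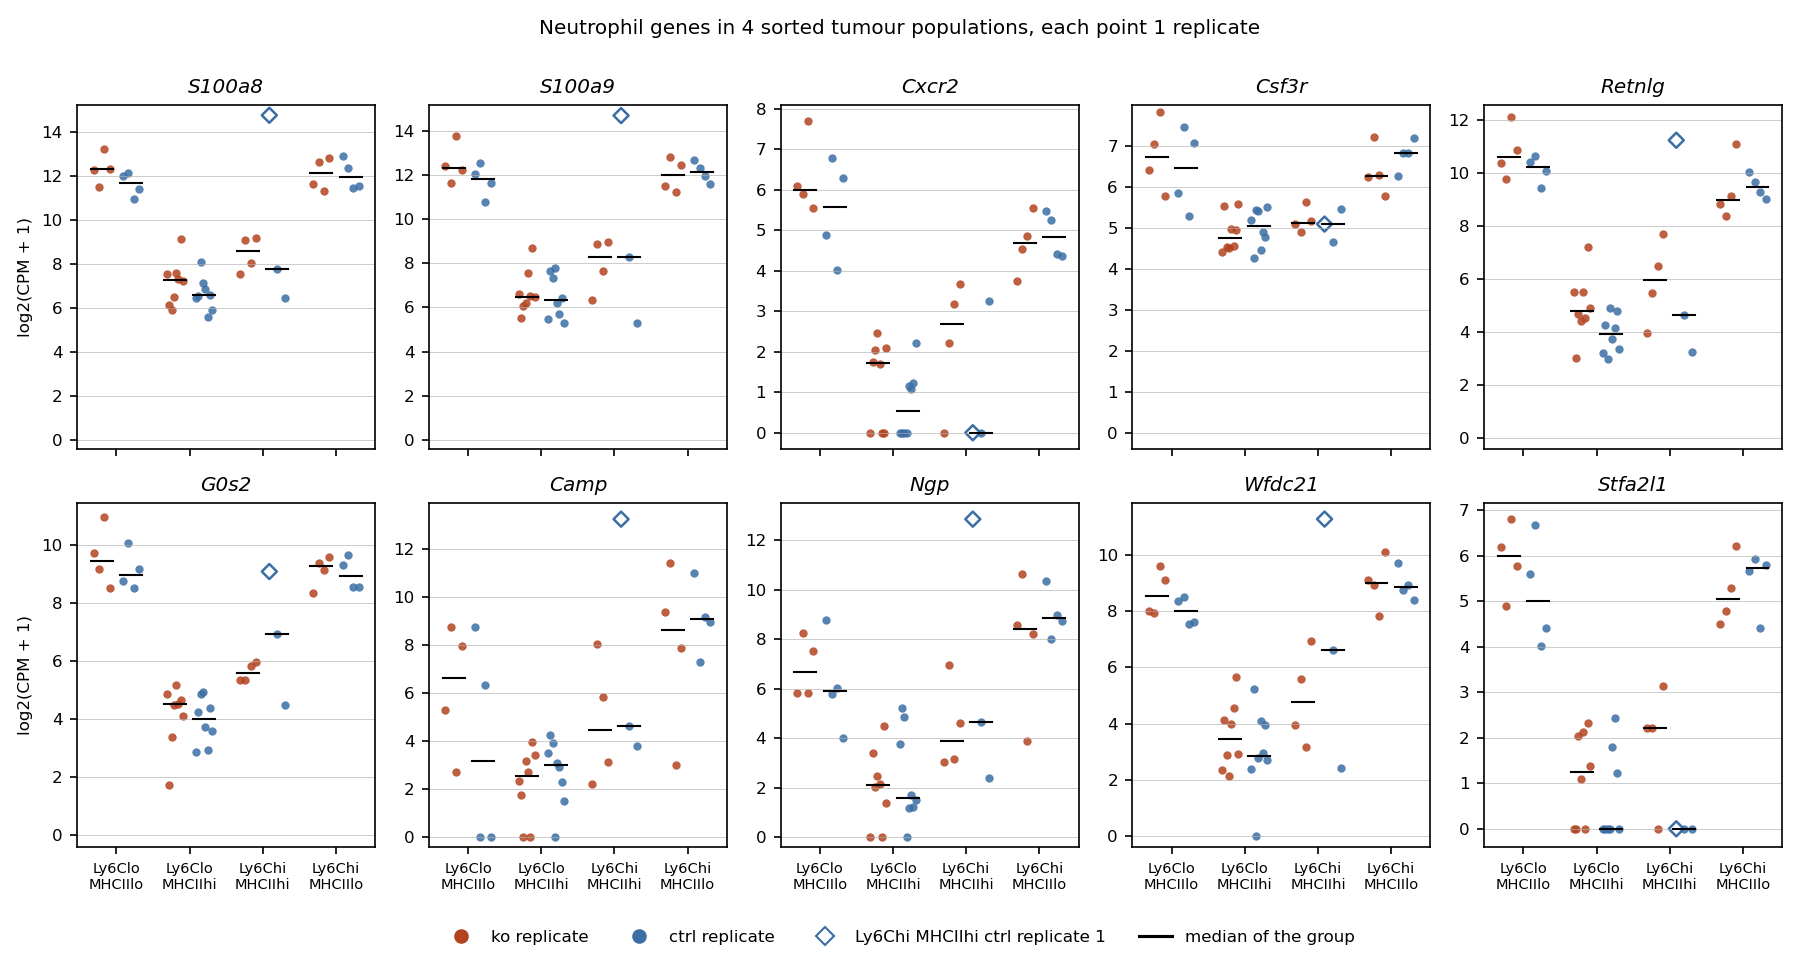
Level of each neutrophil gene in every replicate, as log2(CPM + 1) on the vertical axis, by sorted population on the horizontal axis, with Ccl17 ko points to the left of ctrl points and group medians as bars. In 7 of the 10 panels every Ly6Clo MHCIIlo replicate lies above every Ly6Clo MHCIIhi replicate, a pattern that 0.727% of the genes tested there had, and the diamond is ctrl replicate 1 of Ly6Chi MHCIIhi.

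By the mean of log2(CPM + 1), Cxcr2, Csf3r, Retnlg, G0s2, Stfa2l1 and S100a9 ran in the order Ly6Clo MHCIIlo, Ly6Chi MHCIIlo, Ly6Chi MHCIIhi and Ly6Clo MHCIIhi. S100a8, Ngp and Wfdc21 had the 2 MHCIIlo gates exchanged, and Camp ran Ly6Chi MHCIIlo, Ly6Chi MHCIIhi, Ly6Clo MHCIIlo and Ly6Clo MHCIIhi. The order of Camp rested on ctrl replicate 1 of Ly6Chi MHCIIhi: that gate had a mean of 5.85 with it and 4.61 without it, on either side of the 4.98 of Ly6Clo MHCIIlo. Without that replicate Camp ran in the order of S100a8, Ngp and Wfdc21, and the orders of the 9 other members did not change. By the tests given next, the neighbours Ly6Clo MHCIIlo and Ly6Chi MHCIIlo differed beyond their spread for Cxcr2 and Retnlg (higher) and Camp and Ngp (lower). These shares of members were near the 19.3% and 18.2% of 4336 genes called higher and lower. Leaving out 1 replicate ended the calls of Retnlg, Camp and Ngp. The neighbours Ly6Clo MHCIIhi and Ly6Chi MHCIIhi, without ctrl replicate 1, differed beyond their spread for Camp, Ngp and G0s2 of the 8 members tested. Of all 6122 genes, 8.15% were called lower there.

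All 10 members were higher in Ly6Clo MHCIIlo cells than in Ly6Clo MHCIIhi cells. The comparison asks how MHC class II level divides the Ly6Clo cells. By edgeR's quasi-likelihood test with Benjamini-Hochberg adjustment over 4817 genes, 10 of 10 members passed 0.05 as higher, beside 13.6% of all genes tested, and their median log2 difference was 4.88, against 0.01 over all genes. Among the mature genes, Retnlg differed by 5.80 ± 0.32 (adjusted p = 2.9e-14) and G0s2 by 5.51 ± 0.29 (adjusted p = 6.3e-15) on the log2 scale. Cxcr2 differed by 5.12 ± 0.41 (adjusted p = 1.8e-10). Csf3r rose least, by 1.80 ± 0.25 (adjusted p = 4.3e-06). S100a8 differed by 4.96 ± 0.30 (adjusted p = 2.9e-13) and S100a9 by 5.52 ± 0.34 (adjusted p = 2.9e-13). The granule genes rose as well, Camp by 4.50 ± 0.56 (adjusted p = 5.8e-07) and Ngp by 4.64 ± 0.50 (adjusted p = 5.2e-08). Wfdc21 differed by 4.80 ± 0.30 and Stfa2l1 by 4.62 ± 0.41. For 7 of 10 members the lowest Ly6Clo MHCIIlo replicate lay above the highest Ly6Clo MHCIIhi replicate, beside 0.727% of all genes tested. Within ko samples alone 8 of the 8 members that passed the filter on low counts were called higher, beside 6.65% of 4464 genes. Within ctrl samples alone it was 6 of 6, beside 4.27% of 3844. A member near 0 in Ly6Clo MHCIIhi could pass that filter through Ly6Clo MHCIIlo alone, so these counts are no separate support. Epithelial genes moved too, with 3 of 6 called higher, none at 0 in a whole group and a summed level of 66.4 to 1258 CPM in Ly6Clo MHCIIlo, against 102 to 461 CPM in Ly6Clo MHCIIhi. Dendritic cell genes were called lower for 3 of 4, with a median log2 difference of -2.05 and a summed level of 275 to 439 CPM, against 480.0 to 940.2 CPM. Of these, Xcr1 was at 0 in both genotypes of Ly6Clo MHCIIlo and Clec9a in its ctrl replicates. Macrophage genes were called lower for 4 of 10, with 21946 to 41114 CPM, against 19348 to 50654 CPM, and immediate early genes for 3 of 7. Of the 5 monocyte genes tested, 1 was higher and 1 lower, and 1 of 3 B and plasma cell genes and 1 of 2 T and NK cell genes were lower. The part of these lists in the neutrophil gene differences was not tested.

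Ly6Clo MHCIIhi cells also had less of these genes than Ly6Chi MHCIIlo cells. Cxcr2 did not pass the filter on low counts in that fit, and each of the 9 members that did was lower, beside 21.0% of 5702 genes. Camp had the largest fall, at -6.93 ± 0.56 (adjusted p = 1.5e-11) on the log2 scale, and Ngp differed by -6.58 ± 0.51 (adjusted p = 8.3e-12). G0s2 differed by -5.01 ± 0.23 (adjusted p = 3.6e-17) and S100a8 by -5.05 ± 0.32 (adjusted p = 8.3e-14). Retnlg differed by -4.78 ± 0.35 (adjusted p = 2.4e-12). Csf3r again moved least, at -1.60 ± 0.19 (adjusted p = 3.5e-08). For 8 of the 10 members, Cxcr2 and Csf3r among them, the highest Ly6Clo MHCIIhi replicate lay below the lowest Ly6Chi MHCIIlo replicate. This held for 7 of the 9 members tested, beside 3.17% of all genes tested. The exceptions were Camp and Ngp, through ko replicate 3 of Ly6Chi MHCIIlo, with 6.98 CPM of Camp and 13.97 CPM of Ngp. The marker lists of these gates moved as well. Monocyte genes were lower for 7 of 7, with a median log2 difference of -3.08 and 909 to 1814 CPM in Ly6Clo MHCIIhi, against 5865 to 9099 CPM in Ly6Chi MHCIIlo. Macrophage genes were higher for 9 of 10, with 19348 to 50654 CPM, against 4044 to 8346 CPM, and dendritic cell genes for 4 of 4, with 480.0 to 940.2 CPM, against 117 to 253 CPM. Epithelial genes were lower for 3 of 6, with 102 to 461 CPM, against 199 to 887 CPM, and 3 of 3 proliferation genes were higher. Xcr1 and Clec9a were at 0 in both genotypes of Ly6Chi MHCIIlo and Zbtb46 in its ko replicates. Their part in the neutrophil gene differences was not tested.

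**Figure D2:**
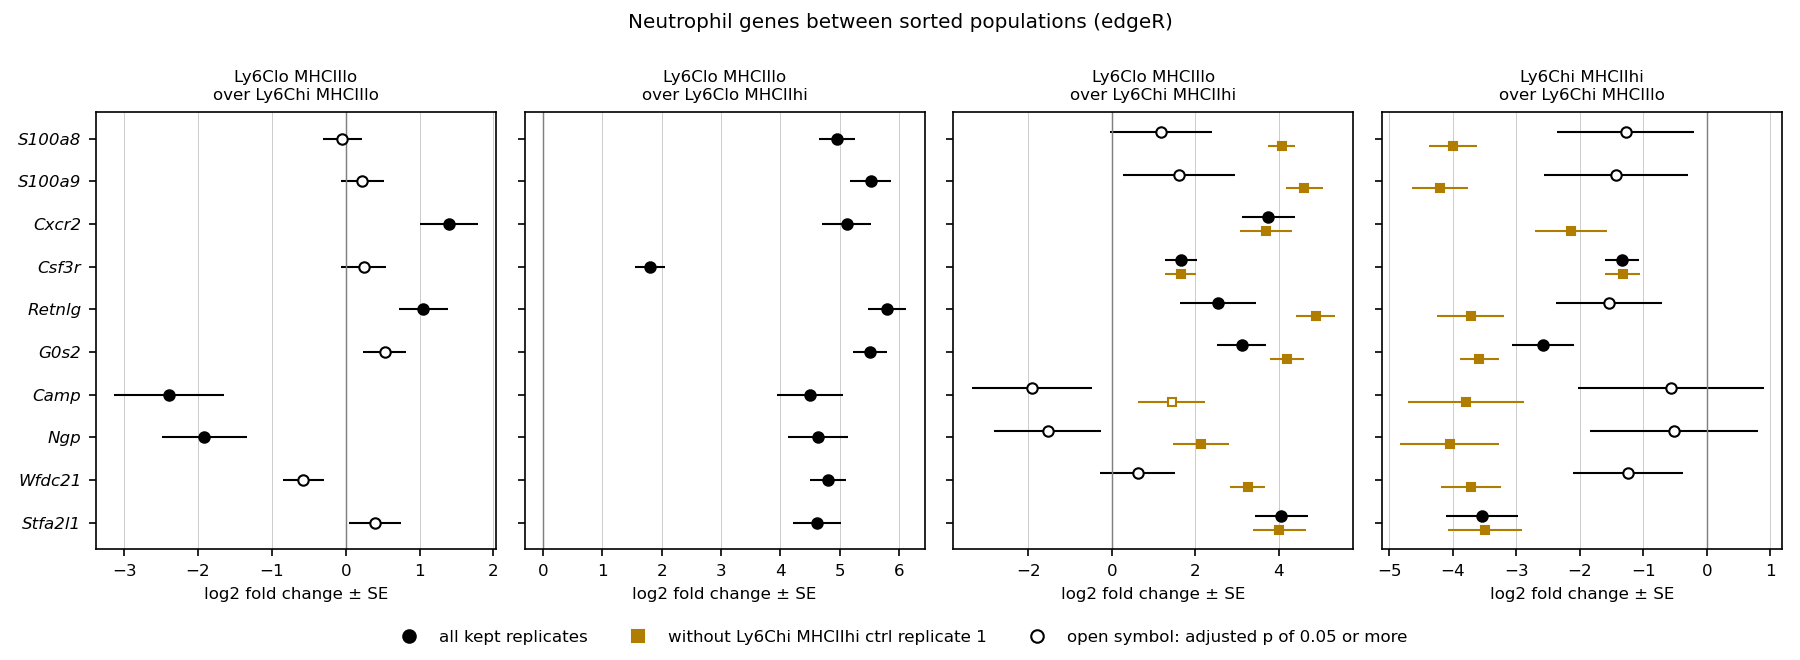
Log2 difference between pairs of sorted populations for each neutrophil gene on the vertical axis, first-named population over the second, with standard errors from edgeR, with and without Ly6Chi MHCIIhi ctrl replicate 1 where that replicate enters. Open symbols have an adjusted p of 0.05 or more. All genes sit above 0 for Ly6Clo MHCIIlo over Ly6Clo MHCIIhi. For Ly6Clo MHCIIlo over Ly6Chi MHCIIlo the filled symbols are Cxcr2 and Retnlg above 0 and Camp and Ngp below it. Of all genes tested there, 19.3% were called higher and 18.2% lower.

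Between the MHCIIlo gates 4 members were called. Cxcr2 and Retnlg were higher and Camp and Ngp lower in Ly6Clo MHCIIlo than in Ly6Chi MHCIIlo. Cxcr2 differed by 1.40 ± 0.39 (adjusted p = 0.0064) and Retnlg by 1.05 ± 0.33 (adjusted p = 0.014) on the log2 scale. Camp differed by -2.39 ± 0.74 (adjusted p = 0.014) and Ngp by -1.91 ± 0.58 (adjusted p = 0.011). So 2 of 10 members were called higher, beside 19.3% of 4336 genes, and 2 lower, beside 18.2%, shares close to those of all genes. Of the other mature genes neither passed, with G0s2 at 0.53 ± 0.29 (adjusted p = 0.157) and Csf3r at 0.24 ± 0.30 (adjusted p = 0.564). S100a8 was at -0.05 ± 0.26 (adjusted p = 0.912), S100a9 at 0.23 ± 0.29 (adjusted p = 0.575), Wfdc21 at -0.57 ± 0.28 (adjusted p = 0.115) and Stfa2l1 at 0.40 ± 0.35 (adjusted p = 0.407). Of these 4 calls, 3 rested on single replicates: without ko replicate 2 of Ly6Chi MHCIIlo, Camp was at -1.70 (adjusted p = 0.072) and Ngp at -1.37 (adjusted p = 0.052), and without ko replicate 3 of Ly6Clo MHCIIlo, Retnlg was at 0.67 (adjusted p = 0.075). Camp also missed the threshold by DESeq2 (adjusted p = 0.073), Retnlg in a fit of all 8 groups (adjusted p = 0.125), and these 3 genes within ko samples alone (adjusted p from 0.060 to 0.103). The whole marker lists of the gates moved with these calls: 6 of 7 monocyte genes were lower and 9 of 10 macrophage genes higher, with none at 0 in a whole group. Monocyte genes summed to 1209 to 1979 CPM in Ly6Clo MHCIIlo, against 5865 to 9099 CPM in Ly6Chi MHCIIlo, and macrophage genes to 21946 to 41114 CPM, against 4044 to 8346 CPM. Their part in the neutrophil gene differences was not tested.

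The balance of granule to mature transcripts differed widely between replicates of 1 gate. It is given as the share of Camp and Ngp in the summed counts of Camp, Ngp, Cxcr2, Csf3r, Retnlg and G0s2, with 95% Wilson intervals that cover counting error only. In Ly6Clo MHCIIlo the share was 3.90% (2.45 to 6.16), 31.1% (27.1 to 35.3), 0.890% (0.498 to 1.59) and 15.5% (12.98 to 18.5) in ko replicates 1 to 4. The ctrl replicates of that gate had 31.3% (27.6 to 35.2), 1.80% (0.916 to 3.51), 11.5% (8.48 to 15.4) and 0.817% (0.278 to 2.38). In Ly6Chi MHCIIlo it was 54.8% (50.9 to 58.7), 78.8% (76.4 to 81.0), 1.66% (0.764 to 3.58) and 14.9% (12.996 to 16.9) in ko replicates 1 to 4. The ctrl replicates there had 65.0% (62.6 to 67.4), 19.1% (15.8 to 22.9), 48.9% (45.0 to 52.7) and 46.6% (42.3 to 50.9). The mean was 12.1 ± 12.9% in Ly6Clo MHCIIlo and 41.2 ± 26.7% in Ly6Chi MHCIIlo (SD, n = 8 each), and the 2 gates overlapped. Most of the intervals are far narrower than the distance between replicates of a group. The summed mature genes varied 6.13-fold over the 8 replicates of Ly6Clo MHCIIlo and 3.50-fold over those of Ly6Chi MHCIIlo. The summed granule genes varied 56.4-fold in Ly6Clo MHCIIlo and 207-fold in Ly6Chi MHCIIlo, but the lowest values behind these folds rest on 3 and 6 counts. As mean and SD, granule genes had 299 ± 335 CPM in Ly6Clo MHCIIlo and 1468 ± 1536 CPM in Ly6Chi MHCIIlo. Mature genes had 2618 ± 1792 CPM and 1513 ± 703 CPM. Relative to their mean the granule genes thus spread more in both gates, though by less than the folds. In both gates ko replicate 2 and ctrl replicate 1 had the highest share of their genotype and ko replicate 3 the lowest ko share, a match noticed after the values were seen. The labels do not say that equal replicate numbers are the same animals.

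**Figure D3:**
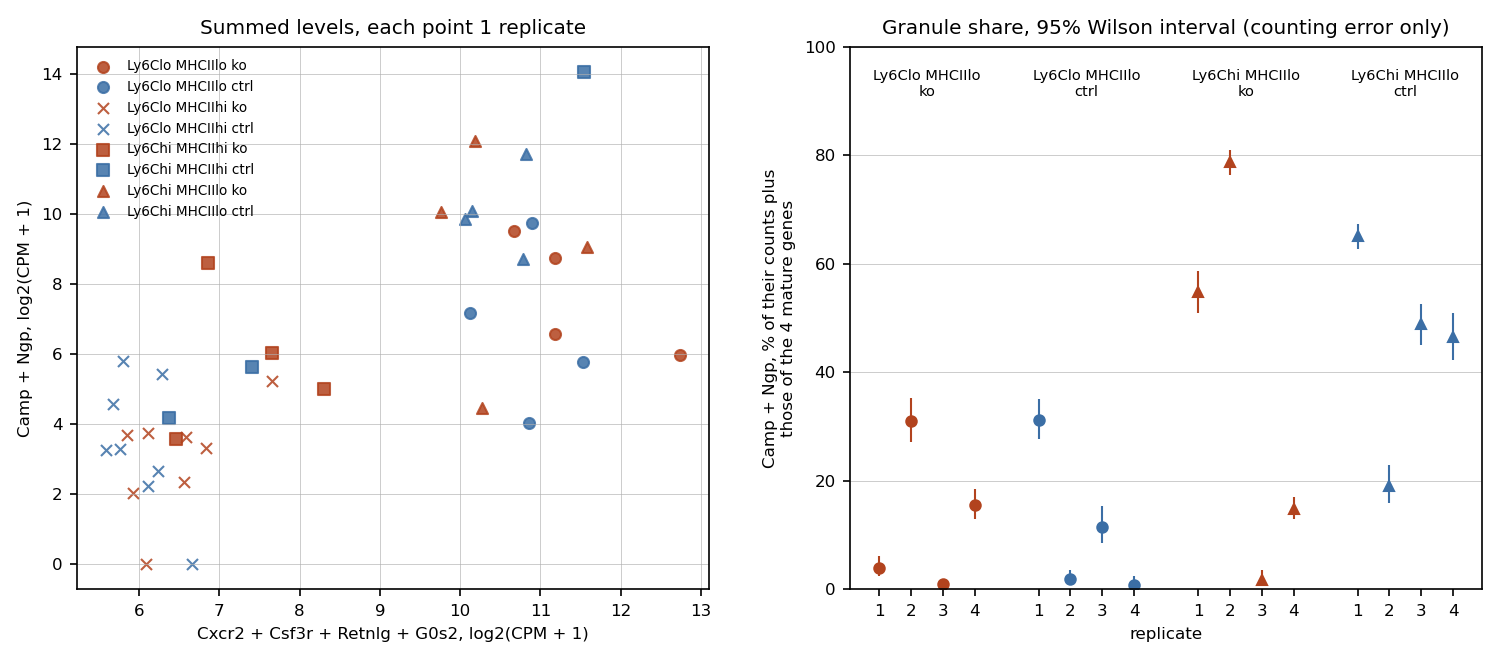
Left, the summed level of Camp and Ngp against that of the 4 mature genes, both as log2(CPM + 1), with 1 point per replicate in all 4 populations. Right, the percentage of Camp and Ngp counts among granule and mature counts in each replicate of the MHCIIlo gates, ko left of ctrl, with 95% Wilson intervals; it ran from 0.817% to 78.8%.

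The level of neutrophil genes in Ly6Chi MHCIIhi depended on ctrl replicate 1. Without that replicate, the gate had far less of them than either MHCIIlo gate and, for the granule genes and G0s2, somewhat more than Ly6Clo MHCIIhi. With all 7 replicates, Ly6Clo MHCIIlo exceeded Ly6Chi MHCIIhi in 5 of 10 members, beside 11.6% of 4175 genes. These were Cxcr2 by 3.75 ± 0.63 (adjusted p = 2.3e-04), Stfa2l1 by 4.06 ± 0.63 (adjusted p = 1.0e-04), G0s2 by 3.11 ± 0.59 (adjusted p = 6.7e-04), Csf3r by 1.65 ± 0.38 (adjusted p = 0.003) and Retnlg by 2.54 ± 0.90 (adjusted p = 0.046) on the log2 scale. Without ctrl replicate 1 it exceeded it in 9 of 10, beside 13.3% of 4631 genes, with S100a8 at 4.07 ± 0.32 (adjusted p = 1.2e-09) and Retnlg at 4.88 ± 0.46 (adjusted p = 2.4e-08). Camp was the member that did not pass, at 1.44 ± 0.80 (adjusted p = 0.193). The Retnlg call with all replicates was near the threshold and ended in 10 of 15 fits that left out 1 replicate (adjusted p from 0.055 to 0.108). Within ctrl samples alone, where ctrl replicate 1 is 1 of 3, no member was called, beside 0.581% of 3273 genes called higher. Within ko samples alone 8 were called higher, beside 12.5% of 3270 genes. With all replicates, monocyte genes were lower for 6 of 7, with 1209 to 1979 CPM in Ly6Clo MHCIIlo, against 1667 to 7599.7 CPM in Ly6Chi MHCIIhi. Macrophage genes were higher for 7 of 10, with 21946 to 41114 CPM, against 7145 to 14493 CPM. B and plasma cell genes were lower for 3 of 3, with 61.1 to 4895 CPM, against 74.0 to 14510.3 CPM, and Cd79a and Ms4a1 of that list at 0 in Ly6Clo MHCIIlo. Their part was not tested.

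Relative to Ly6Chi MHCIIlo, G0s2, Stfa2l1 and Csf3r were lower in Ly6Chi MHCIIhi with and without ctrl replicate 1, and the other members without it. With all replicates 3 of the 9 members that passed the filter were called lower, beside 1.53% of 4756 genes. They were G0s2 at -2.58 ± 0.49 (adjusted p = 0.0052), Stfa2l1 at -3.54 ± 0.57 (adjusted p = 0.0016) and Csf3r at -1.34 ± 0.27 (adjusted p = 0.0077). Camp, at -0.56 ± 1.46 (adjusted p = 0.916), and S100a8, at -1.28 ± 1.08 (adjusted p = 0.629), did not pass. Without ctrl replicate 1 all 10 members were called lower, beside 2.32% of 5183 genes, from -4.20 to -1.33 with a median of -3.72. Camp was then at -3.80 ± 0.91 (adjusted p = 0.017) and Ngp at -4.05 ± 0.78 (adjusted p = 0.003). For the 9 members tested both ways the direction was the same with and without the replicate. Within ctrl samples alone, where ctrl replicate 1 is 1 of 3, no member was called, beside 0.0% of 3648 genes called lower, and within ko samples alone 5 were called lower, beside 0.808% of 3713. With all replicates, monocyte genes were lower for 3 of 7, with 1667 to 7599.7 CPM in Ly6Chi MHCIIhi, against 5865 to 9099 CPM in Ly6Chi MHCIIlo. Macrophage genes were higher for 6 of 9, with 7145 to 14493 CPM, against 4044 to 8346 CPM, and dendritic cell genes for 2 of 2, with 215 to 405 CPM, against 117 to 253 CPM. Their part was not tested.

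Between the MHCIIhi gates, 7 of 8 members tested were lower in Ly6Clo MHCIIhi than in Ly6Chi MHCIIhi with all replicates, beside 7.45% of 5541 genes, and 3 without ctrl replicate 1, beside 8.15% of 6122. The 3 were Camp at -3.03 ± 0.59 (adjusted p = 4.2e-04), Ngp at -2.27 ± 0.66 (adjusted p = 0.017) and G0s2 at -1.31 ± 0.37 (adjusted p = 0.012). With the replicate, Camp had been at -6.98 ± 0.92 (adjusted p = 3.4e-06) and Ngp at -6.78 ± 0.96 (adjusted p = 1.0e-05). S100a8, at -0.88 ± 0.38 (adjusted p = 0.124), and Retnlg, at -0.71 ± 0.50 (adjusted p = 0.368), did not pass without it. Csf3r passed neither way, at -0.18 ± 0.24 (adjusted p = 0.674) with the replicate. In the 6 other replicates of Ly6Chi MHCIIhi, the highest Camp and Ngp values were both in ko replicate 2, at 264 CPM and 123 CPM. Other lists moved between these gates with all replicates. Monocyte genes were lower for 7 of 7, with a median log2 difference of -2.53 and 909 to 1814 CPM in Ly6Clo MHCIIhi, against 1667 to 7599.7 CPM in Ly6Chi MHCIIhi. Red cell genes were lower for 4 of 4, with 29.4 to 12754 CPM, against 88.5 to 297495 CPM, of which the highest value is that of ctrl replicate 1. Macrophage genes were higher for 7 of 10, with 19348 to 50654 CPM, against 7145 to 14493 CPM, and dendritic cell genes for 4 of 4, with 480.0 to 940.2 CPM, against 215 to 405 CPM. Their part in the neutrophil gene differences was not tested.

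No member was called between Ccl17 ko and ctrl cells in any of the 4 gates by edgeR's test adjusted over all genes. In Ly6Clo MHCIIlo all 10 members were tested and had a positive log2 difference, from 0.07 to 0.87 with a median of 0.71, against 0.01 over 3182 genes, of which 0.0314% were called. Of the members, 4 had an unadjusted p under 0.05, as did 136 of all genes. S100a8 was at 0.76 ± 0.30 (unadjusted p = 0.022, adjusted p = 0.999), S100a9 at 0.87 ± 0.39 (unadjusted p = 0.038, adjusted p = 0.999), Wfdc21 at 0.79 ± 0.34 (unadjusted p = 0.033, adjusted p = 0.999) and Retnlg at 0.85 ± 0.37 (unadjusted p = 0.037, adjusted p = 0.999). The smallest differences were those of Ngp, 0.07 ± 0.66, and Csf3r, 0.34 ± 0.46. The members summed to 16533 ± 10010.4 CPM in ko and 9577 ± 3798 CPM in ctrl (SD, n = 4 each), and 1 replicate carried much of the distance: without ko replicate 3, 8 of 10 members were positive with a median of 0.24. The red cell list was apart in these same samples, at 1609 to 6684 CPM in ko and 61.2 to 1346 CPM in ctrl, with 4 of its 4 genes tested at an unadjusted p under 0.05 and a median log2 difference of 2.62, though none passed the adjusted threshold. Its part, like that of barcode class, was not tested.

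In Ly6Clo MHCIIhi 5 members were tested and 0.0% of 5660 genes were called. Retnlg was at 1.58 ± 0.47 (unadjusted p = 0.0027, adjusted p = 0.888), S100a8 at 0.89 ± 0.41 (adjusted p = 0.924), S100a9 at 0.72 ± 0.43 (adjusted p = 0.951), G0s2 at 0.64 ± 0.36 (adjusted p = 0.951) and Csf3r at -0.02 ± 0.23 (adjusted p = 1.000). Of the 8 ko replicates, replicate 7 was the highest in S100a8, S100a9, Retnlg, Ngp and Wfdc21. Without it, the median over the 4 members then tested was 0.23, against 0.72 over the 5 with it. Of other lists none was called, but 4 of 4 red cell genes had an unadjusted p under 0.05, with a median log2 difference of 2.17 and 411 to 12754 CPM in ko, against 29.4 to 1498 CPM in ctrl. So had 3 of 3 B and plasma cell genes, with a median of -1.90 and 53.4 to 4714 CPM in ko, against 43.9 to 30193 CPM in ctrl. So had 6 of 7 immediate early genes, with a median of -0.41 and 6459 to 10426 CPM in ko, against 8281 to 13702 CPM in ctrl. Their part was not tested.

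In Ly6Chi MHCIIhi the sign of the genotype difference turned with ctrl replicate 1. With it, the 6 members tested ran from -5.52 to -2.21, with adjusted p = 0.71 and 0.0% of 3553 genes called, although all 6 had an unadjusted p under 0.05. Without it, 6 of the 7 members tested were positive, from -0.21 to 2.86 with a median of 1.58, and again none passed, beside 0.125% of 4011 genes. S100a8 was at -4.83 ± 1.42 (adjusted p = 0.708) with the replicate and 1.71 ± 0.54 (adjusted p = 0.934) without it, where 4 ko replicates met 2 ctrl replicates. With ctrl replicate 4 left out in its place, which keeps ctrl replicates 1 and 3, 5 members were called lower, beside 0.677% of 3543 genes. With all replicates the 4 red cell genes tested had a median log2 difference of -7.18 and an unadjusted p under 0.05, and 88.5 to 1649 CPM in ko, against 121 to 297495 CPM in ctrl. Their part was not tested.

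In Ly6Chi MHCIIlo the differences between genotypes were small beside their errors. Of the 9 members tested, 5 had a positive and 4 a negative difference, from -0.38 to 0.19, none with an unadjusted p under 0.05, and 0.0756% of 3966 genes were called. The members summed to 13068 ± 6533 CPM in ko and 12770.2 ± 5336 CPM in ctrl (SD, n = 4 each). S100a8 was at 0.05 ± 0.34 (adjusted p = 0.970) and Camp at 0.18 ± 0.91 (adjusted p = 0.955). Cxcr2 did not pass the filter on low counts. The 4 red cell genes tested had an unadjusted p under 0.05 here too, with a median log2 difference of 2.03 and 55.9 to 2112 CPM in ko, against 38.9 to 938 CPM in ctrl, and none passed the adjusted threshold.

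DESeq2 called no member in any gate either, and gave no adjusted p for 4 of the members in Ly6Chi MHCIIhi and 1 in Ly6Chi MHCIIlo. With no filter on low counts, edgeR called 3 members higher in ko cells of Ly6Clo MHCIIlo, beside 0.0688% of 17436 genes. It called 3 higher in Ly6Clo MHCIIhi, beside 0.111% of 22453 genes, and 7 lower in Ly6Chi MHCIIhi with ctrl replicate 1 kept, beside 0.633% of 16280 genes. So the count of 0 depends on the filter. Whether the genotype difference varied between gates was tested as an interaction over the 4 populations. None of the 10 members passed, beside 0.0664% of 6022 genes, and 7 had an unadjusted p under 0.05. The lowest adjusted p were those of S100a8 (0.062) and S100a9 (0.076). DESeq2's likelihood ratio test, with ctrl replicate 1 kept, called 2 members, beside 0.166% of 6022 genes, and without ctrl replicate 1 of Ly6Chi MHCIIhi edgeR's adjusted p was 0.996 for every member.

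**Figure D4:**
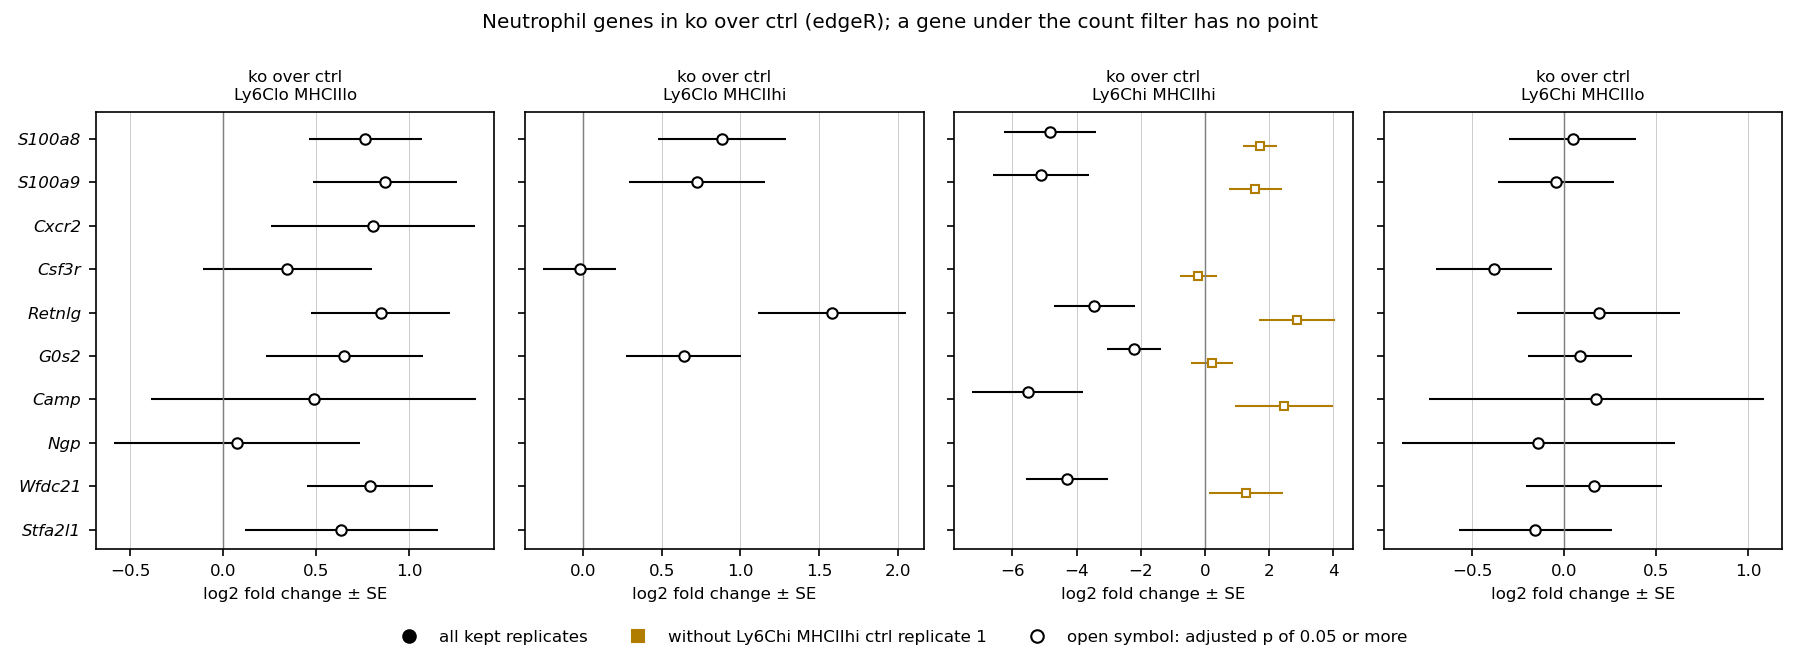
Log2 difference of Ccl17 ko over ctrl cells for each neutrophil gene that passed the filter in each gate, with standard errors from edgeR, and for Ly6Chi MHCIIhi with and without ctrl replicate 1. All 10 points of Ly6Clo MHCIIlo lie between 0.07 and 0.87, and in Ly6Chi MHCIIhi the 6 genes with both points change side when the replicate is left out.

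Other neutrophil genes did not all follow the members between the MHCIIlo gates. Of 8 receptor and surface genes tested, 1 was higher and 5 lower in Ly6Clo MHCIIlo than in Ly6Chi MHCIIlo, Cd177, a surface glycoprotein of mouse and human neutrophils, at -2.65 ± 0.29 (adjusted p = 6.5e-08) and Ltb4r1, the leukotriene B4 receptor, at -2.92 ± 0.21 (adjusted p = 9.4e-11). Of 8 later granule genes, 3 were lower, Chil3 at -4.16 ± 0.39 (adjusted p = 6.4e-09) and Hp, haptoglobin, at -2.01 ± 0.19 (adjusted p = 9.0e-09) among them. Both are also made by monocytes. The one later granule gene that rose was Mmp9, gelatinase B, which macrophages make too, by 2.77 ± 0.26 (adjusted p = 9.3e-09). Prtn3, the proteinase 3 gene and the 1 primary granule gene that passed the filter, was lower, at -4.97 ± 0.70 (adjusted p = 3.9e-06). Mpo and Elane, which encode myeloperoxidase and neutrophil elastase, had no count in any replicate of Ly6Clo MHCIIlo or Ly6Clo MHCIIhi. Of 10 genes reported for tumour neutrophils, 4 were higher and 6 lower, with Csf1, the macrophage growth factor, at 3.39 ± 0.35 (adjusted p = 3.0e-08) and Il1b at -0.75 ± 0.14 (adjusted p = 1.1e-04).

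Against Ly6Clo MHCIIhi, 7 of 8 later granule genes were higher in Ly6Clo MHCIIlo, Ltf, lactoferrin, by 4.23 ± 0.48 (adjusted p = 1.1e-07) and Mmp8, neutrophil collagenase, by 2.86 ± 0.35 (adjusted p = 4.7e-07) among them. Of 7 receptor genes, 3 were higher, Clec4d, a C-type lectin receptor of myeloid cells, by 1.28 ± 0.18 (adjusted p = 5.7e-06) and Fpr1, the receptor for formyl peptides, by 1.09 ± 0.26 (adjusted p = 0.0026) among them, and 1 was lower. Gm5483, a stefin A family gene, was higher by 5.47 ± 0.50 (adjusted p = 1.7e-09), with the same doubt about shared reads as Stfa2l1. None of 3 neutrophil attractant and growth genes tested and none of 4 granulocyte transcription factors was called. Ly6g, the surface marker by which mouse neutrophils are commonly sorted, ran from 0 to 67.1 CPM (median 16.6) in Ly6Clo MHCIIlo, 0 to 1.62 CPM in Ly6Clo MHCIIhi and 3.08 to 28.4 CPM in Ly6Chi MHCIIlo. Its highest value, 149 CPM, was in Ly6Chi MHCIIhi ctrl replicate 1, and the median of that gate was 0. Between ko and ctrl cells, edgeR called no gene of these 7 neutrophil lists in any gate; 3 of the 32 tested in Ly6Clo MHCIIlo, 3 of 29 in Ly6Clo MHCIIhi, 2 of 30 in Ly6Chi MHCIIhi and 8 of 36 in Ly6Chi MHCIIlo had an unadjusted p under 0.05. Over all genes tested this held for 136 of 3182, 296 of 5660, 246 of 3553 and 444 of 3966 in the same gates.

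The levels of the members varied together over the 39 replicates, which share gates and libraries. The Pearson correlation of each member's log2(CPM + 1) with the mean of the 9 others was 0.970 for S100a9, 0.969 for S100a8, 0.931 for Retnlg and 0.930 for G0s2. It was lowest for Camp, at 0.630, then Csf3r, at 0.728, and Cxcr2, at 0.732. Without ctrl replicate 1 of Ly6Chi MHCIIhi it was 0.615 for Camp, 0.779 for Csf3r, 0.836 for Cxcr2 and 0.909 for Stfa2l1, which had been at 0.807, and it moved by less than 0.01 for the 6 others. The 7538 other genes were ranked by likeness to the mean of the members, and names of predicted or clone type, such as Gm numbers and Rik, were passed over. Of the rest, those most like that mean were Flna (0.885), Chil1 (0.857), Rnf144a (0.853), Anxa1 (0.849), Sorl1 (0.840) and Prok2 (0.839). Il1f9 (0.813), Ly6g (0.798) and Ltf (0.798) were also among the nearest. Without that replicate Flna was at 0.919, and the 8 others named ran from 0.791 for Ltf to 0.851 for Chil1. These are descriptions over replicates whose gates differ, and carry no test.

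The repeat libraries of Ly6Clo MHCIIhi show how far the low level there can be read. For each of the 8 replicates with 2 libraries, the 10 members were summed as CPM of each library, without TMM scaling. In ko replicates the higher library exceeded the lower 1.57-fold in replicate 4, 1.08-fold in replicate 5, 3.01-fold in replicate 7 and 1.21-fold in replicate 8. In ctrl replicates it did so 2.66-fold in replicate 5, 1.59-fold in replicate 6, 1.53-fold in replicate 7 and 2.19-fold in replicate 8. For ko replicate 7, the outlying replicate of that group, the libraries had 629 and 1895 CPM, and both lay above all other ko libraries of that set. In ctrl replicates 5 to 8 the libraries of a replicate differed in barcode class, and in all 4 the library with the barcode rich in A and T was the higher. It was also the second library by label in each, so barcode class and library order cannot be told apart there. In ko replicate 4 the one rich in G and C, again the second library, was the higher. Both libraries of ko replicates 5, 7 and 8 had barcodes rich in G and C. The second was the higher in ko replicates 5 and 7 and the lower in ko replicate 8.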

How the data were processed

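Sorted cells were sequenced in bulk from the 3′ ends of poly(A) RNA, with a modified form of a published protocol, per the labels. The authors deposited 1 table of whole-number counts per gene; GRCm38, R 3.4.4 and DESeq2 1.18.1 are named in the submitters' processing notes. The sources used here do not give the aligner or counter, nor whether molecular identifiers or reads were counted, so intervals and limits cover counting error only.

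Libraries of 1 replicate were summed, and libraries under 28006.25 counts (0.1 of the median) were left out, which gave 39 replicates from 48 libraries. One row is called z, which matches no gene name in the reference tables; its 127 counts (0.000967%) were kept. Tests used edgeR 4.0.16 in R 4.3.3: TMM scaling, a filter on low counts (filterByExpr, minimum count 10, minimum total 15), the quasi-likelihood F test and Benjamini-Hochberg adjustment over all genes tested, with a threshold of 0.05. Each comparison was fitted on its own groups, and comparisons of populations had genotype as a term. A gene low in 1 group can pass the filter through the group where it is high, also in fits of 1 genotype. Levels are CPM with TMM factors, with a pseudocount of 1 on the log2 scale. The fits were checked on simulated counts in which all genes had the same relative spread between replicates and no library stood apart. That setting is simpler than these samples, so the check is no support for the calls given here. Alternatives were DESeq2 1.42.0, other scaling, other filters on genes and libraries, all 8 groups in 1 fit, 1 genotype at a time, a replicate block and leaving out each replicate.

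The members and the gene lists were chosen with earlier results of these data known. All members were described. From each other neutrophil list, up to 3 genes of smallest p could be named, and for likeness of pattern the first 10 genes by Pearson r with a mean of at least 20 CPM in some group. For likeness of pattern, names of predicted or clone type were passed over. Ly6g, Mpo and Elane were named after their values were seen. Gene positions are from GENCODE M21 on GRCm38, and sequence windows from RefSeq on GRCm38.p6. Some genes, among them genes that these rules would name, are not reported here.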

Additional observations from a re-analysis of the deposited data

Results flagged for a closer look

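In 12 of 70 groups of 4 to 8 replicates of 1 population and genotype, 1 replicate lay apart from its group mates in a member, by Dixon's test at 95%. The test takes values as normal, but CPM are skewed and stop at 0, and the 70 groups share replicates. How many flags chance would give is therefore not known. Replicate 7 of Ly6Clo MHCIIhi ko accounted for 5 of them, with S100a8 at 565 CPM (59.5 to 192 in the others), S100a9 at 414 CPM (44.9 to 188), Retnlg at 147 CPM (7.10 to 45.3), Ngp at 21.5 CPM (0 to 9.46) and Wfdc21 at 49.7 CPM (3.42 to 22.3).

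In the ctrl replicates of that population, S100a8 was at 273 CPM in replicate 3 (47.8 to 141 in the others). There Cxcr2 was at 3.68 CPM in replicate 8 (0 to 1.33) and Wfdc21 at 36.4 CPM in replicate 2 (0 to 16.1). Cxcr2 had 5 counts in all over these 8 replicates, and replicate 2 had a total of 51630 counts. The flags of Cxcr2 and Wfdc21 there thus rest on few counts. In Ly6Clo MHCIIlo, Cxcr2 was at 207 CPM in ko replicate 3 (45.7 to 66.6 in the others) and Ngp at 436 CPM in ctrl replicate 1 (15.3 to 64.8). In Ly6Chi MHCIIhi, Ngp was at 123 CPM in ko replicate 2 (7.28 to 23.4 in the others). In Ly6Chi MHCIIlo, Retnlg was at 2169 CPM in ko replicate 4 (328 to 566 in the others). Ly6Chi MHCIIhi ctrl, with 3 replicates, was too small a group for this test.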

How the results depend on the processing

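Over the alternatives that change a setting, 174 of the counts of called members stayed within 1.5 times their value and 28 moved further; of the values of single genes, 684 kept their direction and side of the threshold, 49 came to pass it, 23 no longer passed it and 29 changed sign. The causes were not tested unless stated. Shares of all genes called stand beside such counts in the paragraphs above for some settings only. A count below without such a share shows movement between settings and is no result about the members. The mean summed level of the members in Ly6Chi MHCIIhi ctrl ran from 536 CPM without its ctrl replicate 1 to 38597 CPM without ctrl replicate 4, and that of the granule members from 32.7 to 8588 CPM. Against the SD of 43772 CPM, which that replicate sets, the first range stays within 1 SD. In the other groups the summed levels moved by less than 1 SD under every alternative run. Leaving out 1 replicate of these groups cannot move a mean by 1 SD, so for those fits the measure shows no stability.

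With no count filter, the members called between ko and ctrl were 3 higher in Ly6Clo MHCIIlo, 3 higher in Ly6Clo MHCIIhi and 7 lower in Ly6Chi MHCIIhi, the interaction called 7, Ly6Clo MHCIIlo had 8 higher and 2 lower than Ly6Chi MHCIIhi, Ly6Chi MHCIIhi had 8 lower than Ly6Chi MHCIIlo, and S100a9 between ko and ctrl in Ly6Chi MHCIIlo was at 0.0102. With all 8 groups in 1 fit, 5 members were lower in ko cells of Ly6Chi MHCIIhi and 1 was higher in Ly6Clo MHCIIlo than in Ly6Chi MHCIIlo. DESeq2's test called 1 member lower in Ly6Clo MHCIIlo than in Ly6Chi MHCIIlo, 2 lower in Ly6Clo MHCIIhi than in Ly6Chi MHCIIhi and 2 in the interaction, and its size factors in edgeR gave 1 in the interaction. It gave no adjusted p for 5 members in each comparison of a Ly6Clo gate with Ly6Chi MHCIIhi and for 6 between the Ly6Chi gates. With library totals in place of TMM, S100a8 was at -0.00501 between ko and ctrl in Ly6Chi MHCIIlo and at 0.0331 between Ly6Clo MHCIIlo and Ly6Chi MHCIIlo.

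With libraries under 100000 counts left out, which removes ctrl replicates 1 and 3 of Ly6Chi MHCIIhi among others, 9 members were higher in Ly6Clo MHCIIlo than in that gate (Camp at 1.40 and Ngp at 2.12), 10 were lower in it than in Ly6Chi MHCIIlo, and 3 were lower in Ly6Clo MHCIIhi than in it. Its only ctrl replicate is then assumed to vary like the ko replicates, and its ko and ctrl cells differed by 2.71 for Camp, 1.17 for G0s2, 3.28 for Retnlg, 2.24 for S100a8, 3.04 for S100a9 and 3.44 for Wfdc21.

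Within ko samples, Ly6Clo MHCIIlo had 1 member higher and 0 lower than Ly6Chi MHCIIlo (S100a8 at 0.32) and 8 higher than Ly6Chi MHCIIhi (Camp at 1.19, Ngp at 1.86); 5 were lower in Ly6Chi MHCIIhi than in Ly6Chi MHCIIlo and 1 lower in Ly6Clo MHCIIhi than in Ly6Chi MHCIIhi. Within ctrl samples, Ly6Clo MHCIIlo had 1 member higher than Ly6Chi MHCIIlo (Csf3r at -0.11, S100a9 at -0.22, Stfa2l1 at -0.0142), 6 higher than Ly6Clo MHCIIhi, and 0 higher than Ly6Chi MHCIIhi (S100a8 at -1.68, S100a9 at -1.44, Wfdc21 at -1.84). There Ly6Chi MHCIIhi had 0 members lower than Ly6Chi MHCIIlo (Camp at 2.24, Ngp at 2.25, Retnlg at 0.33, S100a8 at 1.26, S100a9 at 1.19, Wfdc21 at 0.95), and Ly6Clo MHCIIhi 2 lower than Ly6Chi MHCIIhi.

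Equal replicate numbers were not taken as pairs: in no comparison did the deviations of every pair correlate above 0.1 (4 of 7 pairs at most, for Ly6Chi MHCIIhi and Ly6Chi MHCIIlo). Every pair was above 0, however, for Ly6Chi MHCIIhi and Ly6Chi MHCIIlo (0.072 to 0.247). The same held for Ly6Clo MHCIIlo with Ly6Chi MHCIIlo (0.006 to 0.280) and with Ly6Chi MHCIIhi (0.037 to 0.099). In the other comparisons, those of ko and ctrl included, the pairs lay on both sides of 0. Whether these samples share animals was not tested. With a replicate block, 7 members were lower in Ly6Chi MHCIIhi than in Ly6Chi MHCIIlo and 4 lower in Ly6Clo MHCIIhi than in Ly6Chi MHCIIhi. Without the block these counts were 3 and 7. Under the block Camp was at -1.02 and Retnlg at -0.21 between ko and ctrl in Ly6Chi MHCIIlo, and Ngp at 0.62 between Ly6Clo MHCIIlo and Ly6Chi MHCIIhi.

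Leaving out each replicate in turn gave these ranges where a count moved or a gene changed sign. Between ko and ctrl in Ly6Clo MHCIIlo, Camp ran from -0.35 to 2.46, Csf3r from -0.12 to 0.72, G0s2 from -0.0501 to 1.06 and Ngp from -0.51 to 1.72. In Ly6Chi MHCIIhi, 0 to 5 members were lower, Camp ran from -6.08 to 2.47, G0s2 from -3.10 to 0.22, Retnlg from -4.10 to 2.86, S100a8 from -5.38 to 1.71, S100a9 from -5.66 to 1.58 and Wfdc21 from -4.94 to 1.29. In Ly6Chi MHCIIlo, Camp ran from -1.43 to 1.15, G0s2 from -0.0626 to 0.35, Ngp from -1.44 to 0.50, Retnlg from -0.75 to 0.46, S100a8 from -0.19 to 0.38, S100a9 from -0.39 to 0.18, Stfa2l1 from -0.65 to 0.0613 and Wfdc21 from -0.31 to 0.48, and in Ly6Clo MHCIIhi Csf3r ran from -0.16 to 0.0828. Ly6Clo MHCIIlo had 1 to 2 members higher and 0 to 3 lower than Ly6Chi MHCIIlo (Csf3r from -0.0448 to 0.38, S100a8 from -0.29 to 0.0680, S100a9 from -0.14 to 0.35), and 4 to 9 higher than Ly6Chi MHCIIhi (Camp from -2.57 to 1.44, Ngp from -2.03 to 2.14). Ly6Chi MHCIIhi had 3 to 10 lower than Ly6Chi MHCIIlo (Camp from -3.80 to 0.33, Ngp from -4.05 to 0.22), and Ly6Clo MHCIIhi 3 to 7 lower than Ly6Chi MHCIIhi. The interaction called 0 to 7, with 7 when Ly6Chi MHCIIhi ctrl replicate 4 was left out and 3 when its ctrl replicate 3 was left out.

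Depth limits the low values most: in a replicate with no count of a gene, 3 counts would still allow up to 72.3 CPM of Cxcr2 in Ly6Chi MHCIIhi ctrl replicate 3.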
